A study of Mus musculus with 33 samples.

Results

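The non-clustered delta protocadherin genes examined here are Pcdh1, Pcdh7, Pcdh8, Pcdh9, Pcdh10, Pcdh17 and Pcdh18, 7 of the 20665 protein-coding genes on chromosomes 1 to 19. They were chosen by name, and their bodies are those of RefSeq in GRCm38.p6 (mm10). For each gene the share of bases of the body, and of 200 kb on each side, was read from the deposited domain maps of 3 sources. The sources were mouse embryonic stem (mES) cells and the heart and forebrain of C57BL/6 embryos at E11.5. In each source CUT&RUN, in which a nuclease cuts out the DNA under an antibody, was run with antibodies to H3K9me2 (a histone mark of repressed chromatin), to Lamin B1 (a protein of the nuclear lamina) and with control IgG. The mES line was first plated on feeder fibroblasts and then moved to medium with LIF, PD0325901 and CHIR99021. It is a single cell line, whereas the hearts were whole and the forebrains were right lobes, pooled by litter. There were 3 libraries of H3K9me2 and of Lamin B1 in each source, and 3 IgG libraries in mES cells, 6 in each tissue, 33 libraries in all.

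The maps are 9 lists, 3 per source, that name stretches of whole 10 kb bins as LAD, KOD or open. LADs are lamina-associated domains. KOD is the depositors' own label, with no definition in the text used here. Bases outside every list of a source are called no list below. Each source has 1 list per state with the replicates pooled and no score, so the depth behind a domain is unknown. No value below has a replicate error, and no difference between sources could be tested. A tissue is a mix of cells, so a state held by some cells cannot be told apart from a weaker state in all of them. Expression was not measured, and the identity of the tissues could not be checked against marker transcripts.

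Delta protocadherins are cell adhesion proteins of the cadherin superfamily, each with a row of extracellular cadherin repeats, 1 pass through the membrane and a cytoplasmic tail. They are known mainly from the developing nervous system, where neurons with different members sort their axons and synapses. Unlike the alpha, beta and gamma protocadherins, which sit in 1 gene cluster, they are encoded by separate genes. Among the genes examined here, those of the delta-1 group (Pcdh1, Pcdh7 and Pcdh9) have more cadherin repeats than those of the delta-2 group (Pcdh8, Pcdh10, Pcdh17 and Pcdh18). The groups are named only for these genes and are not complete lists.

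The members fell into 3 kinds of surroundings. Pcdh1 lay inside a long open domain in every source. Pcdh8 lay in an open domain in mES cells and forebrain, with LAD further upstream, and in no list between LADs in heart. Pcdh7, Pcdh9, Pcdh10, Pcdh17 and Pcdh18 lay within stretches of LAD, with LAD over 65.8% to 100% of each 200 kb flank in every source. These 5 are isolated genes. Pcdh7, Pcdh9, Pcdh10 and Pcdh17 had 0 other protein-coding genes within 1 Mb of the body and Pcdh18 had 1, compared with 12 for Pcdh8, 77 for Pcdh1 and a median of 30 over all protein-coding genes. In mES cells and heart, 4 and 5 of the 6 members with a known start had that start in no list. In forebrain the starts of Pcdh7, Pcdh8, Pcdh9 and Pcdh10 were in open domains. Over all genes these states were counted by body and not by start. By body 7.05% of all genes in mES cells and 9.99% in heart were in no list, and 57.4% were open in forebrain. Counts by start are set against other genes only for LAD-rich surroundings, further below.

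Each gene was then given the state with the largest share of its body. In mES cells 4 of 7 members were LAD by this measure (Pcdh7, Pcdh9, Pcdh17 and Pcdh18), compared with 16.5% of protein-coding genes. In heart it was 0 of 7, against 14.2%, and in forebrain 2 of 7 (Pcdh7 and Pcdh9), against 16.5%. Open members numbered 2 in mES cells (Pcdh1 and Pcdh8), 2 in heart (Pcdh1 and Pcdh7) and 4 in forebrain (Pcdh1, Pcdh8, Pcdh10 and Pcdh17), against 63.6%, 58.0% and 57.4% of all genes. Members in no list numbered 1 in mES cells (Pcdh10), 5 in heart (all but Pcdh1 and Pcdh7) and 1 in forebrain (Pcdh18), against 7.05%, 9.99% and 7.21% of all genes. In no source was a member mostly KOD, which was the state of 12.9% of genes in the mES map, 17.8% in heart and 18.9% in forebrain. The only KOD bases in any body were 10.0 kb of Pcdh9 in forebrain. The backgrounds of LAD and no list were similar among long genes. Of the 4725 genes of at least 50 kb, a class that holds 4 of the 7 members, 16.6%, 13.2% and 17.2% were LAD and 9.19%, 11.2% and 9.84% were in no list, in the same order of sources.

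**Figure D1:**
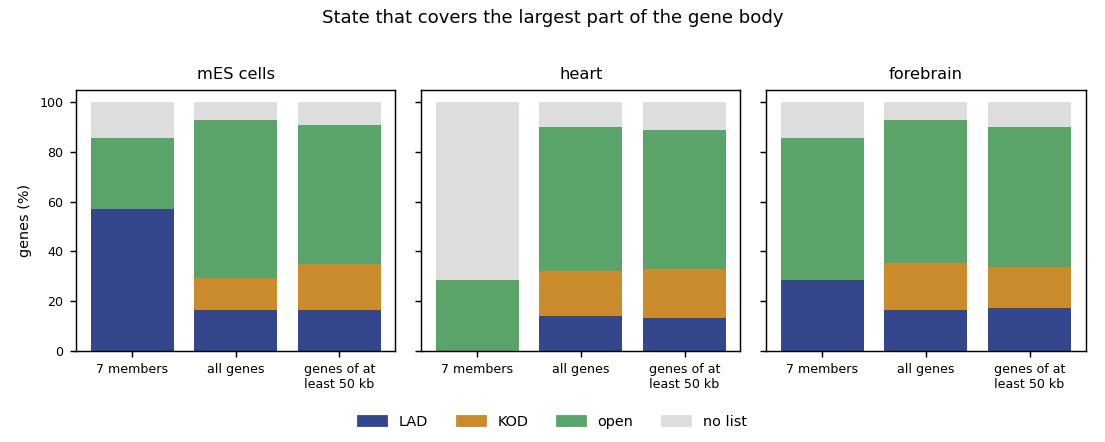
Share of genes (percent, vertical axis) by the state with the largest share of the body, in each of the 3 sources, for the 7 members, for all 20665 protein-coding genes and for the 4725 of at least 50 kb. The members hold 4 LAD genes in mES cells and 5 genes in no list in heart, and none of their bars has a KOD part.

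Between mES cells and heart 5 of 7 members had another state when no list counts as a state, compared with 26.2% of all genes. Of the members 3 went from LAD to no list (Pcdh9, Pcdh17 and Pcdh18), Pcdh7 from LAD to open and Pcdh8 from open to no list. Only Pcdh1 and Pcdh7 were listed in both sources, so 1 of 2 differed by this count, compared with 19.6% of all genes listed in both. All 4 members that were LAD in mES cells were not LAD in heart, compared with 29.5% of all genes with that mES state. From mES cells to forebrain 3 of 7 differed, compared with 28.4% of all genes, namely Pcdh10 (no list, then open), Pcdh17 (LAD, then open) and Pcdh18 (LAD, then no list). This count was 2 of 7 with 20 kb trimmed from domain ends, gaps of up to 20 kb filled, or 10 kb added on each side of the body. Of the 5 listed in both only Pcdh17 differed, compared with 22.6% of genes. Of the 4 LAD members 2 were not LAD in forebrain, compared with 19.6%. Between forebrain and heart 5 of 7 differed, compared with 22.7%, and 1 of the 2 listed in both did so, compared with 15.2%. Both members that were LAD in forebrain were not LAD in heart, compared with 27.2%. The comparisons share sources, so these counts are not independent of each other.

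**Figure D2:**
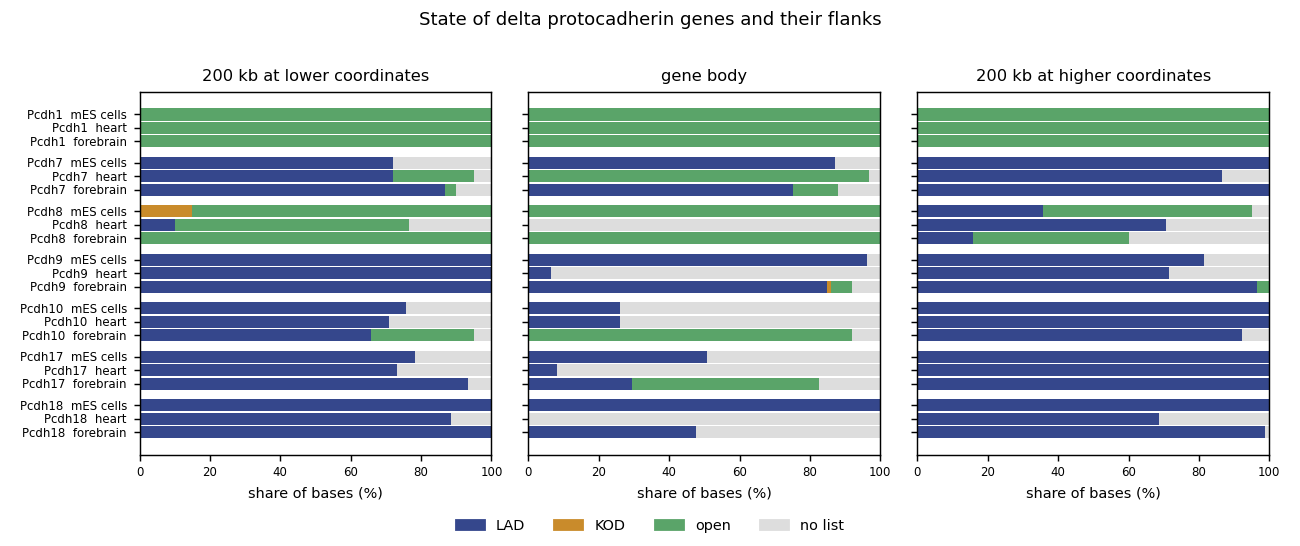
Share of bases (percent, horizontal axis) in LAD, KOD, open and no list for each member in each source, in the gene body (middle) and in the 200 kb on each side. Pcdh1 is open throughout, and the flanks of Pcdh7, Pcdh9, Pcdh10, Pcdh17 and Pcdh18 are mostly LAD in all 3 sources while their bodies differ.

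Among the delta-1 members, Pcdh1, an adhesion protein of epithelia and vessel linings, was the invariant one. Its body (chromosome 18, 38185914 to 38212048) and both flanks were 100% open in mES cells, heart and forebrain. The open domain around it was 1090, 1060 and 1600 kb long in these sources. Its nearest protein-coding neighbours in the annotation used here were Arap3 at 186 kb and Dele1 at 38.2 kb.

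Pcdh7 was also named BH-protocadherin for its transcripts in brain and heart. By open bases of the body in heart (404 kb), though not by share, it ranked first among the members. The gene spans 417 kb (chromosome 5, 57716145 to 58133236, plus strand) and its nearest protein-coding neighbours lay 3595 kb (Stim2) and 3676 kb (G6pd2) away. In mES cells 87.1% of the body was LAD and the other 12.9% was in no list. In heart 96.8% was open and none was LAD, so that 350 kb changed from LAD in the mES map to open in the heart map. In forebrain 75.1% was LAD, 12.9% open and the rest in no list. The difference in heart ended close to the gene. The open bins reached from 57670001 to 58130000 with a break of 1 bin, while 71.9% of the 200 kb upstream and 86.6% of the 200 kb downstream were LAD in heart. The forebrain map had an open domain only at the 5′ end, of 60 kb. Split at 50 kb from the start, the first stretch was 100% in no list in the mES map and 100% open in both tissues. The remaining 365 kb were 99.5% LAD in mES cells, 96.4% open in heart and 85.8% LAD in forebrain.

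Pcdh9, the longest member at 879 kb (chromosome 14, 93013700 to 93892834, minus strand), is an adhesion protein of neuronal circuits. Its nearest protein-coding neighbours were Pcdh20 at 4542 kb and Spertl at 1988 kb. Its body was 96.3% LAD in mES cells, 6.40% LAD in heart and 84.9% LAD in forebrain. The heart did not have an open domain in its place, since 93.6% of the body was in no list there, and 790 kb were LAD in mES cells and in no list in heart. What LAD was called within the heart body came as 5 domains, of which 4 were single bins of 10 kb. The 200 kb downstream were 100% LAD in all 3 sources, so the unlisted stretch ended near the 3′ end of the gene. The forebrain body differed from that of mES cells at both ends. The first 50 kb from the start were 100% open in forebrain, while in mES cells they were 38.6% LAD and 61.4% in no list. Toward the 3′ end, between the forebrain LADs that end at 93090000 and begin at 93170001, 70.0 kb that were LAD in mES cells were in no list in forebrain and 10.0 kb were KOD.

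Among the delta-2 members Pcdh8, also called paraxial protocadherin (Papc) after its role in the mesoderm that forms somites, is the shortest at 4.54 kb (chromosome 14, 79766772 to 79771312, minus strand). It lies between Cnmd at 105 kb and Olfm4 at 229 kb. Its body is shorter than a bin and lies across 2 neighbouring bins. It was 100% open in mES cells and in forebrain and 100% in no list in heart. In mES cells the upstream 200 kb were 59.3% open and 35.7% LAD, and in forebrain 44.3% open and 15.7% LAD. In heart 70.7% of these bases were LAD and none was open. The 200 kb downstream were 85.0% open in mES cells, where the other 15.0% were KOD, 66.6% open in heart and 100% open in forebrain. The first LAD upstream of the start was 48.7 kb away in heart, 129 kb in mES cells and 169 kb in forebrain. The LAD nearest to the start in heart was one of 20 kb on the downstream side, 41.3 kb away.

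Pcdh10, also called OL-protocadherin, is needed for the outgrowth of striatal axons. It spans 56.2 kb (chromosome 3, 45378398 to 45434579, plus strand), with D3Ertd751e at 3575 kb and Pabpc4l at 1006 kb as neighbours. In mES cells and in heart the body had the same states, 25.9% LAD and 74.1% in no list. In forebrain 91.8% was open, 8.15% was in no list and none was LAD. An open domain of 110 kb, from 45320001 to 45430000, covered the start and nearly the whole gene in forebrain. The domain reached into the upstream 200 kb, which were 29.2% open and 65.8% LAD in forebrain, compared with 0% open and 75.8% LAD in mES cells. The downstream 200 kb were 92.3% LAD in forebrain and 100% LAD in mES cells.

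Pcdh17, an adhesion protein of the synapses between cortex and basal ganglia, spans 94.0 kb (chromosome 14, 84443563 to 84537565, plus strand), between Olfm4 at 4420 kb and Diaph3 at 2118 kb. Its body was 50.6% LAD in mES cells, 8.05% LAD in heart and 29.3% LAD in forebrain. The rest was 49.4% no list in mES cells and 92.0% no list in heart. In forebrain 53.2% was open, in a domain of 50 kb that began 6.44 kb downstream of the start and lay wholly inside the gene, and 17.5% was in no list. The downstream 200 kb were 100% LAD in every source. This is the member whose state is least firm. With 20 kb trimmed from every domain end it was in no list in all 3 sources, and its forebrain body was in no list when domains under 100 kb were left out.

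Pcdh18, whose cytoplasmic tail binds the adaptor protein Dab1, spans 14.1 kb (chromosome 3, 49743291 to 49757383, minus strand), between Pabpc4l at 3295 kb and Slc7a11 at 608 kb. It was 100% LAD in mES cells, with both flanks 100% LAD, inside a LAD of 1620 kb. In heart the body was 100% in no list, in an unlisted stretch of 90 kb, with LAD over 68.7% of the upstream and 88.4% of the downstream flank. In forebrain 47.6% was LAD and 52.4% in no list, the latter in 1 bin that held the start. With gaps of up to 20 kb filled, or with 10 kb added to the body on each side, Pcdh18 was LAD in forebrain.

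The starts of Pcdh7, Pcdh9, Pcdh10 and Pcdh17 lay in breaks of the LADs in every source, though some breaks reached further or lay elsewhere in the body. The bin that holds the start of transcription was therefore compared next. Starts and strands came from the RefSeq promoter table, which held 6 of the 7 members (not Pcdh1) and 16457 protein-coding genes on these chromosomes. This comparison was chosen after the domains of the members had been seen. The start of Pcdh7 in mES cells lay in a stretch of 110 kb in no list between LADs of 3460 and 4850 kb. For Pcdh9, Pcdh10 and Pcdh17 the stretch without LAD in mES cells was 70, 90 and 90 kb, all of it in no list. In heart the stretches were 500 kb for Pcdh7, of which 450 kb were open, and 240, 100, 140 and 90 kb for Pcdh9, Pcdh10, Pcdh17 and Pcdh18, none of it open. The heart stretch of Pcdh9 ended at a LAD of a single 10 kb bin, past which most of the body was again in no list. In forebrain they were 120, 60, 140 and 80 kb for Pcdh7, Pcdh9, Pcdh10 and Pcdh17, and of these 60, 60, 110 and 50 kb were open. For Pcdh18 the forebrain stretch was 10 kb in no list, and in mES cells its start was in LAD.

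**Figure D3:**
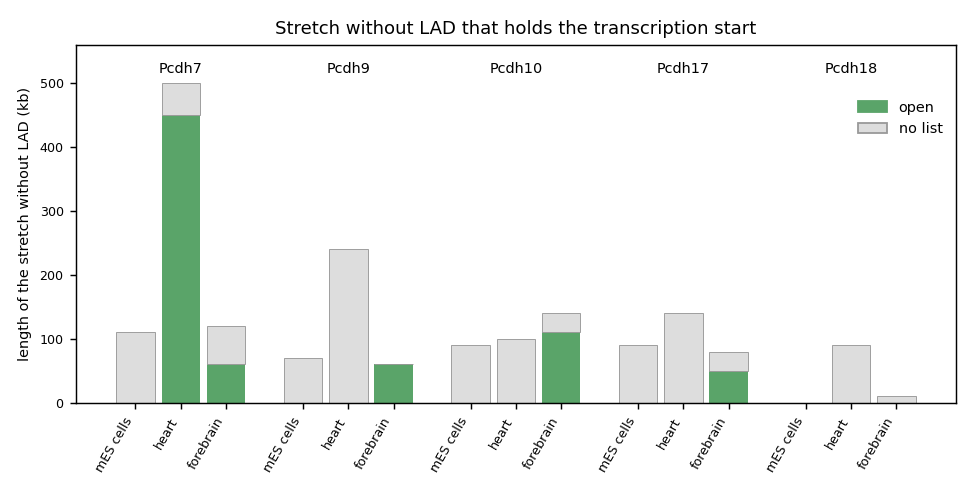
Length (kb, vertical axis) of the stretch without LAD that holds the transcription start of the 5 LAD-embedded members in each source, split into open and no list; no bar means that the start was in LAD. Open bases appear in forebrain for Pcdh7, Pcdh9, Pcdh10 and Pcdh17, and in heart for Pcdh7, while the mES stretches hold none. The heart bar of Pcdh9 ends at a LAD of a single 10 kb bin, with further bases in no list beyond it.

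The upstream borders of these stretches lay close together. Over the 3 sources the upstream LAD border varied by 30 kb for Pcdh7, 50 kb for Pcdh9, 20 kb for Pcdh10 and 40 kb for Pcdh17. The downstream border, inside or just past the gene, varied by 390, 150, 30 and 40 kb. The value for Pcdh9 rests on a heart LAD of a single 10 kb bin (93700001 to 93710000). Apart from such single bins, the next heart LAD downstream ended at 93030000, near the 3′ end of the gene. For Pcdh10 and Pcdh17 a break in the LAD was thus present at the same place in all 3 maps, and it was the listing of its bins as open that was found in forebrain and not in the other maps. For Pcdh7, Pcdh9, Pcdh17 and Pcdh18 the stretch without LAD was longest in heart, and for Pcdh10 in forebrain.

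**Figure D4:**
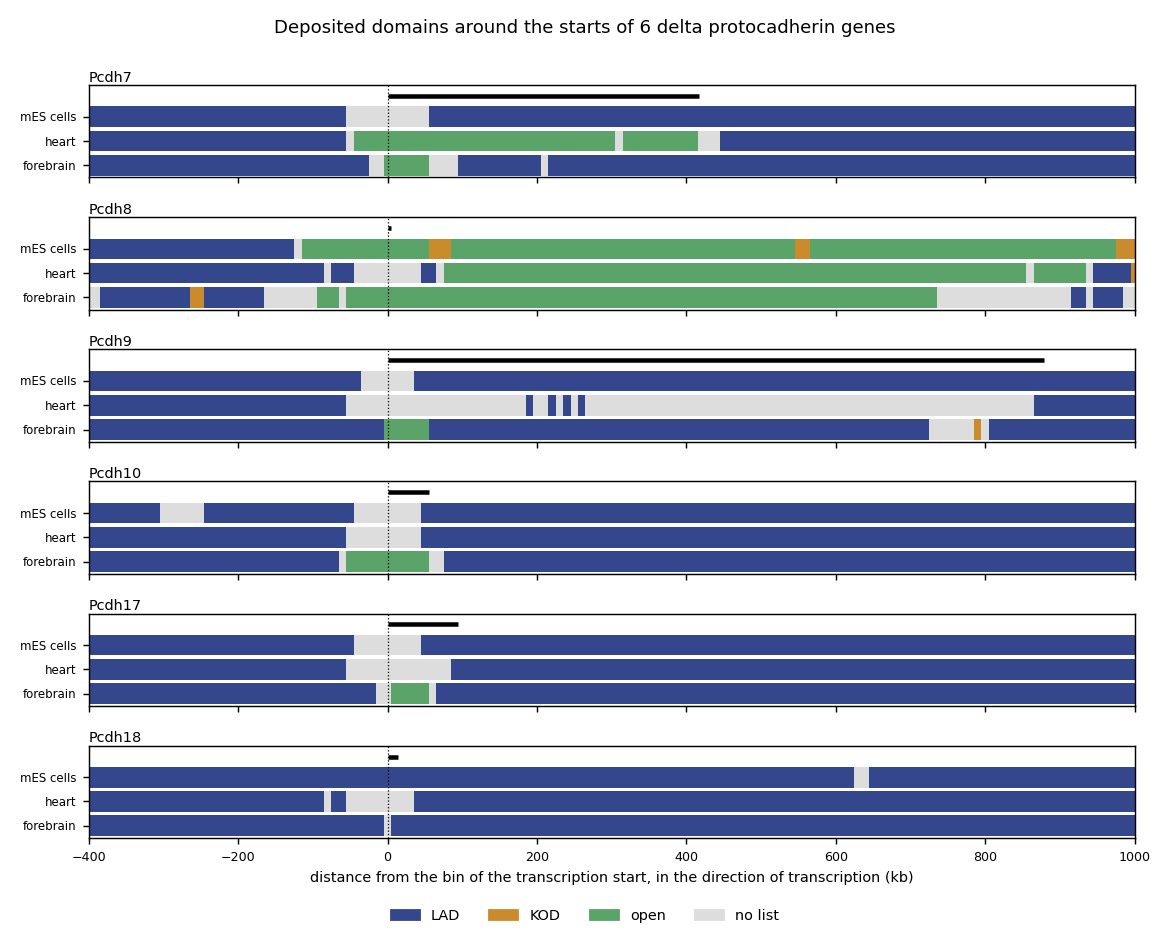
Deposited state of each 10 kb bin around the transcription start of 6 members, with distance from the start in the direction of transcription (kb, horizontal axis), 1 row per source, and the gene body as a black line. The stretches without LAD lie at the starts of Pcdh7, Pcdh9, Pcdh10 and Pcdh17 in every row, with open bins there in forebrain.

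The same was counted over all genes in LAD-rich surroundings. Within 200 kb of the start, the bases in LAD in mES cells, heart and forebrain made up 72.5%, 35.5% and 70.0% for Pcdh7 and 82.5%, 37.7% and 85.0% for Pcdh9. For Pcdh10 they were 77.5%, 75.0% and 65.0%, for Pcdh17 77.5%, 65.0% and 80.0%, and for Pcdh18 100%, 75.0% and 97.5%. Only the Pcdh7 and Pcdh9 starts thus fell below 50% in 1 source, the heart, and Pcdh8 stayed below it in every source, at 17.8%, 40.3% and 7.83%. In mES cells 5 of the 6 members with a start had at least 50% LAD within 200 kb of it, and 4 of these 5 starts were not in LAD, compared with 13.7% of all genes in such surroundings. In heart it was 3 of 3 (Pcdh10, Pcdh17 and Pcdh18), compared with 17.3%, and in forebrain 5 of 5, compared with 14.9%. In forebrain 3 of these 5 starts were in an open domain (Pcdh7, Pcdh9 and Pcdh10), compared with 4.60% of such genes. In mES cells it was 0 of 5, compared with 1.56%, and in heart 0 of 3, compared with 3.09%. The heart start of Pcdh7 was open, but only 35.5% of the bases within 200 kb of it were LAD there. Of the 3 members in such surroundings in all sources, Pcdh10 and Pcdh17 had starts outside LAD in every source, compared with 4.36% of genes. The starts of 2 members, Pcdh9 and Pcdh10, were open in forebrain and in neither other source, compared with 3.61% of all genes with a start. Members were few and were not tested as a set, and the open domains at or next to the forebrain starts of Pcdh7, Pcdh9 and Pcdh17 were 50 to 60 kb long, so they are absent when domains under 100 kb are left out.

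The sequence just upstream of the start is shown for the 3 LAD-embedded members whose windows reach outside the annotated gene body. Pcdh10 and Pcdh17 had a break in every source, and Pcdh18 had its start in LAD in mES cells. Pcdh7 and Pcdh9 also had a break in every source, but their windows lie within the annotated body and are not printed. The bases are those of the RefSeq promoter table for GRCm38.p6 that lie outside the annotated gene body, written on the strand of the gene, with CG dinucleotides in capitals. They are chr3:45378148-45378397 on the plus strand, chr14:84443313-84443562 on the plus strand and chr3:49757384-49757566 on the minus strand.
Pcdh10: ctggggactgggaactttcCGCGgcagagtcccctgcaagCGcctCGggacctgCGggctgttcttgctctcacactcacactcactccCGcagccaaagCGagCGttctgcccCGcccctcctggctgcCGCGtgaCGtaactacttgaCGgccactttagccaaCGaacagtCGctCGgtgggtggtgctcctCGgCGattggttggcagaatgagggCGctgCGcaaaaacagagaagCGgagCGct
Pcdh17: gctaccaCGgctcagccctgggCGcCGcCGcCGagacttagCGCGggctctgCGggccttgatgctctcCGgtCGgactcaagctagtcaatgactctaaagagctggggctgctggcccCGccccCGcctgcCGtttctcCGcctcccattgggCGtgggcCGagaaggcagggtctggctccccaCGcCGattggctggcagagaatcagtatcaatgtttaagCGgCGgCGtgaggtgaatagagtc
Pcdh18: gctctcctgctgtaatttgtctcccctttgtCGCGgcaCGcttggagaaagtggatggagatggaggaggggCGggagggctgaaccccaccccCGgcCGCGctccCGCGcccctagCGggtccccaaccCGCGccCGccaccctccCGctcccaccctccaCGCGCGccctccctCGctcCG
Within the 250 bases upstream of the start, CG (the same on both strands) occurred 22 times in Pcdh10, 21 times in Pcdh17 and 23 times in Pcdh18. For Pcdh18 the printed stretch holds only 183 of these bases and 19 of the CG, as the rest of the window lies within the body. The median over 16457 genes was 10, and 93.0% of the windows held at least 1. Windows with as many were found in 19.6%, 21.7% and 17.5% of genes. Pcdh9 had 18 and Pcdh8 had 11, while Pcdh7 had 7, fewer than the median. GC content ranged from 51.2% in Pcdh8 to 68.0% in Pcdh18, with a median of 55.6% over all genes. The hexamer TATAAA, searched on both strands, was in the window of Pcdh8 only, 1 time, and in 12.5% of all windows. In mES cells the start of Pcdh18 (23 CG) was in LAD, while in heart and forebrain it was in no list. The starts of the other members with a window were outside LAD in mES cells, with counts from 7 (Pcdh7) to 22 (Pcdh10). Whether the number of CG goes with the state of the start was not tested. The windows are much shorter than a bin, so they say nothing of which bases the domains turn on.

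Some members share a domain and are not separate observations. The LAD of 4500 kb that begins upstream of Pcdh8 in mES cells (chromosome 14, 79900001 to 84400000) is the one that ends upstream of Pcdh17. In forebrain a LAD of 4300 kb (chromosome 3, 45450001 to 49750000) ran from just past the 3′ end of Pcdh10 into the body of Pcdh18. In heart the corresponding stretch on chromosome 3 had LADs of 1300 kb next to Pcdh10 and 2990 kb next to Pcdh18. Only a single bin lay between them, since they ended at 46720000 and began at 46730001. The mES map also had a short break there, between LADs that ended at 49110000 and began at 49130001.

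Related genes were read in the same way, from lists written with earlier results of these data known. Of the other non-clustered protocadherins 3 lie on these chromosomes. Pcdh12, an endothelial protocadherin, was 100% open in every source. It lies within the 200 kb flank of Pcdh1 and in the same open domain, so it is not a separate observation. Pcdh15, a protein of the hair cell tip links, was 100% LAD in every source over 1554 kb, without a break at its start. Pcdh20, in the gene-poor stretch of chromosome 14 between Pcdh17 and Pcdh9, was 100% LAD in mES cells and forebrain and 100% in no list in heart, as Pcdh9 was for the most part. In forebrain Pcdh20 lay in the LAD of 5540 kb that reaches into the body of Pcdh9. Pcdh11x and Pcdh19 are outside chromosomes 1 to 19 and were not analysed here.

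Of 10 large cadherins (the Fat, Dachsous and Celsr genes and Cdh23) 5 did not have the same state in all 3 sources, compared with 37.4% of all protein-coding genes and with 6 of the 7 members. By the states of its body Fat3 matched the LAD-embedded Pcdh17. Its body of 592 kb was 91.6% LAD in mES cells, 60.8% in no list in heart and 84.4% open in forebrain. The start of Fat3, unlike that of Pcdh17, was in LAD in mES cells and heart, and it was in no list in forebrain. Fat2 was KOD (100%) in the mES and heart maps and open (100%) in that of forebrain. Cdh23, the partner of Pcdh15 in tip links, was KOD over 100% in mES cells and 77.8% in heart, and open over 92.4% in forebrain. Fat4 had 88.0% KOD in the mES map and was 100% open in each tissue. Dchs2 was split in mES cells, with 38.1% in no list and 33.9% KOD as the largest shares, and was 60.6% LAD in both tissues.

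Of 14 genes of proteins that bind delta protocadherin tails or act beside them, such as the WAVE complex that drives actin branching, 12 were open in the mES map, 11 in heart and 10 in forebrain, against 63.6%, 58.0% and 57.4% of all genes. Of these 14, 6 differed between sources, against 37.4% of all genes. Wasf2, a WAVE subunit, went from 100% open in the mES map to 100% KOD in each tissue. Wasf3 was 100% open in mES cells and forebrain and 90.3% in no list in heart. Taok2, a kinase bound by Pcdh8, and Set, a partner of Pcdh7, were 100% open in mES cells and heart and 100% KOD in forebrain. Dab1 was 52.5% LAD and 44.9% KOD in mES cells, 48.9% LAD and 35.1% KOD in heart, and 90.2% KOD in forebrain. Cdh2, the N-cadherin that Pcdh8 binds at synapses, was 54.5% in no list in mES cells and 100% open in both tissues.

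The genes with the most similar maps were found by the mean absolute difference over 36 shares, the 4 states of the body and of both flanks in 3 sources, among protein-coding genes at least 2 Mb away. For Pcdh10 the nearest were Gli3 (a mean difference of 5.35 percentage points) and Khdrbs3 (7.16), both in no list in mES cells and heart and open in forebrain. For Pcdh17 they were Cacna2d1 (4.92) and Flrt2 (6.47), both of them LAD in forebrain, where Pcdh17 was open, with Flrt2 also in no list in mES cells. Scn7a (3.08) and Sucnr1 (3.10) were nearest to Pcdh9, and Neil3 (2.46) and Atp10a (2.72) to Pcdh18. For Pcdh8 they were Gprc5b (5.38) and Ilvbl (5.42). Pcdh7 had Gm4340 (5.58) and Gm20765 (5.94), gene models of 2.48 and 2.47 kb on chromosome 10 with the states of Pcdh7 in each source. Such short predicted genes may be near-identical copies, and their mapping is uncertain. For Pcdh1 676 genes had the same 36 shares, and the longest of them were Ptk2 and Tmcc1.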

How the data were processed

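H3K9me2, Lamin B1 and IgG were profiled by CUT&RUN in mES cells, E11.5 heart and E11.5 forebrain (33 libraries in 9 groups). The build mm10 and the tools deepTools, Picard, Bowtie2 2.5.0, cutadapt 4.2 and Trim Galore are named per the submitters' processing notes. The domain caller and the role of IgG in it are not given in the sources used here. The authors deposited 9 lists of domain coordinates (chromosome, start and end in whole 10 kb bins, no score) with replicates pooled, so depth is unknown and no interval, floor or test was possible.

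Bins were painted with Python 3.11.15, numpy 2.4.6 and pandas 2.3.3, and figures drawn with matplotlib 3.10.9. Deposited ends were read as the last base counted from 0. Shares are of bases, and a gene took the state of its largest share, which can be under 50%. The code was tested on simulated data. Genes, starts and sequences came from RefSeq tables for GRCm38.p6, in which all 7 members matched by symbol. The start furthest upstream in the promoter table was used.

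The named genes are the members, genes of the other lists that differ in state between sources, the 2 genes with the most similar map for each member, and nearest neighbours. Pcdh12 and Pcdh15 were named after their values were seen. The members and lists were chosen with earlier results of these data known. Alternatives were trimmed domain ends, longer domains only, filled gaps, padded bodies, the midpoint and, chosen after seeing the data, the start.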

Additional observations from a re-analysis of the deposited data

How the results depend on the processing

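The counts of members that were LAD, open or KOD in each source, and that differed between sources, were taken again with 20 kb trimmed from every domain end, domains under 100 kb left out, gaps of up to 20 kb filled, 10 kb added on each side of the body, and the state at the midpoint. All 12 counts stayed within 1.5 times their value under these settings, except that 1 member in place of 2 was LAD in forebrain at the midpoint, which for Pcdh7 falls in 1 unlisted bin. This tolerance is wide for 7 members, and the counts of KOD members and of LAD members in heart were 0 throughout. With ends trimmed, gaps filled or bodies padded, 2 members in place of 3 differed between mES cells and forebrain, against 28.4% of all genes. With gaps filled or bodies padded, 3 members in place of 2 were LAD in forebrain. By the state of the start bin, with Pcdh1 kept at its body state, LAD members numbered 1 in mES cells and 0 in forebrain. Members that differed then numbered 3 between mES cells and heart, 3 between forebrain and heart and 4 between mES cells and forebrain. By the body these counts were 5, 5 and 3, so the order of the pairs depends on the measure. The starts concerned lie in the stretches without LAD described above. Shares of bodies moved by at least 10 percentage points in 9 of 42 cases with trimmed ends, and in 2, 1 and 2 of 42 with short domains left out, gaps filled and bodies padded. LAD shares of flanks did so in 17 of 42 cases with 100 kb and 12 of 42 with 500 kb on each side. There is no spread between replicates to set these against. No paired analysis was possible because the lists hold pooled replicates, and leaving out a replicate was not possible for the same reason. The depth, and so what it limits, is unknown.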
